A study of Saccharomyces cerevisiae with 46 samples.

Results

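The large (60S) subunit of the yeast cytosolic ribosome is built from rRNA and the proteins encoded by the RPL genes, and 76 of the 5696 host features in the gene count table are RPL genes. They were chosen by name: every feature whose locus tag carries the standard symbol RPL with a number and, where present, the letter A or B, from RPL1A to RPL43B. All 76 such symbols of the RefSeq gene table were found. They form 33 paralog pairs and 10 single-copy genes, and 52 of them have an intron in the coding sequence, against 24 without. Of the 76, 75 had enough counts to be tested. RPL21A, the exception, had 0 counts in 28 of 34 libraries and 1 count at most, while its paralog RPL21B averaged 1475 CPM (counts scaled by the library's TMM-adjusted host total). The deposited transcript of RPL21A overlaps that of YBR191W-A on the same strand, a feature that held 16 to 338 counts per library. The part of that overlap in the RPL21A value was not tested.

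The libraries come from budding yeast of strain BY4741 that carried a low copy number plasmid with an mCherry reporter, harvested at an OD600 of 0.7 after 4 h of growth without uracil (30 °C, 200 rpm). The reporter groups are named by promoter and terminator. They comprise pTSA1-tTSA1 (10 libraries), pPGK1-tRPS3 (10 libraries) and pRPS3-tRPS3 (12 libraries). In each context the terminator was modHTH, modNAA, modNTN, modNNN or unmodified. The modified terminators hold 3 insertion sites of 9 bp that carry motifs H, A or T or a random sequence N. Each plasmid group had 2 libraries, except modNNN in pRPS3-tRPS3 with 4. POT1-ccdB, a plasmid with no reporter construct, had 2 libraries. BY4741 is a MATa laboratory strain with deletions at HIS3, LEU2, MET17 and URA3. The HIS3 allele of this strain lacks an internal part of the gene, so 3′ end reads do not check it, and HIS3 had 94 to 427 counts per library. In these libraries MET17 was at 0 counts and LEU2 at 0 to 2 counts, while the MATa receptor gene STE2 stood at 265 to 381 CPM. The labels do not say whether replicates came from separate cultures. The p-values measure the spread between libraries of the same plasmid, which may be technical. Differences between the plasmids of a context do not enter that spread. The other 12 samples of the series were not analysed here.

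Ribosomal protein genes are among the most highly transcribed genes of growing yeast, and most exist as paralog pairs that encode the same or nearly the same protein. Their promoters are typically bound by Rap1, which recruits Fhl1 and Ifh1, and their transcription rises with growth rate and falls in stress. Equal amounts of the proteins are needed per subunit, and the excess of any of them is degraded.

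In the 450 bases that run from 500 to 51 before the start codon, 35 of the 76 RPL genes (46.1%) held the letters ACCCNNACA on either strand, a short form of the Rap1 site. The share among the windows of all 5550 host features with a locus tag was 5.23%. No other motif was searched, and a match of letters does not show binding. The examples below are from RefSeq R64, read 5′ to 3′ on the strand of the match, with the motif in capitals. RPL25 and RPL33B were among the 4 members that varied most between replicates, RPL19B varied least, and RPL22B had the largest rise in pTSA1-tTSA1 libraries.
RPL25, chrXV:79942-79966, minus strand: atgtaaacACCCGTACAtattaaat
RPL33B, chrXV:779859-779883, minus strand: ctgtataaACCCATACAatcagccc
RPL19B, chrII:168029-168053, plus strand: gttttaaaACCCAGACAtatttttc
RPL22B, chrVI:65161-65185, minus strand: atgtcaacACCCGTACAtattcaga
These examples were taken from members with a match, which include the most and the least variable member. RPL37B and RPL39, the others of the 4 most variable, held no match. Of the 4 least variable, RPL13B and RPL26A also held it and RPL21B did not. Across the 75 tested members, the median spread between replicates was 0.18 for the 35 with the motif and 0.17 for the 40 without it, on the log2 scale defined below.

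Host totals ran from 1007889 to 3837006 counts per library. One library stood apart from the rest: replicate 2 of modNAA in pPGK1-tRPS3. It held the lowest values of RPL25 (35.4 CPM), RPL37B (13.9 CPM) and RPL10 (65.1 CPM) in the series. Counts of called members are therefore also given without the plasmid group of this library, an alternative that was chosen after seeing the data. They are given for the context comparisons with pRPS3-tRPS3 and for reporter plasmids against POT1-ccdB, not for pTSA1-tTSA1 against pPGK1-tRPS3. The RPL genes together took 17.4 ± 0.506% of the host counts in pTSA1-tTSA1 libraries (SD, n = 10), 14.998 ± 0.393% in pPGK1-tRPS3 (n = 10), 16.0 ± 1.02% in pRPS3-tRPS3 (n = 12) and 14.7 ± 0.348% in POT1-ccdB (n = 2). CPM is a share of the RNA pool, so a lower share of RPL transcripts cannot be told apart from a larger amount of other RNA per cell.

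Library preparation read transcripts from their 3′ ends, so the levels of different genes are given without division by length. Whether 3′ ends of different genes were captured and assigned equally well was not tested. The deposited transcripts of 23 RPL genes overlap another on the same strand. Differences in level between genes are therefore differences in counts, and need not be differences in the amount of transcript. The mean level over all libraries spanned 205-fold between the highest and the lowest tested member. The median member stood at 1661 CPM, against 45.0 CPM for the median of all 5142 host features tested, and 52 members exceeded 1000 CPM. The 3 highest were RPL41A (9797 CPM), which encodes the smallest ribosomal protein, RPL28 (9760 CPM), where mutations give cycloheximide resistance, and RPL1B (7599 CPM), a protein of the mobile L1 stalk. The 3 lowest were RPL22B (47.8 CPM), RPL15B (67.0 CPM) and RPL39 (79.4 CPM), the last a single-copy gene for a small protein that lines the exit tunnel of the nascent chain.

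**Figure D1:**
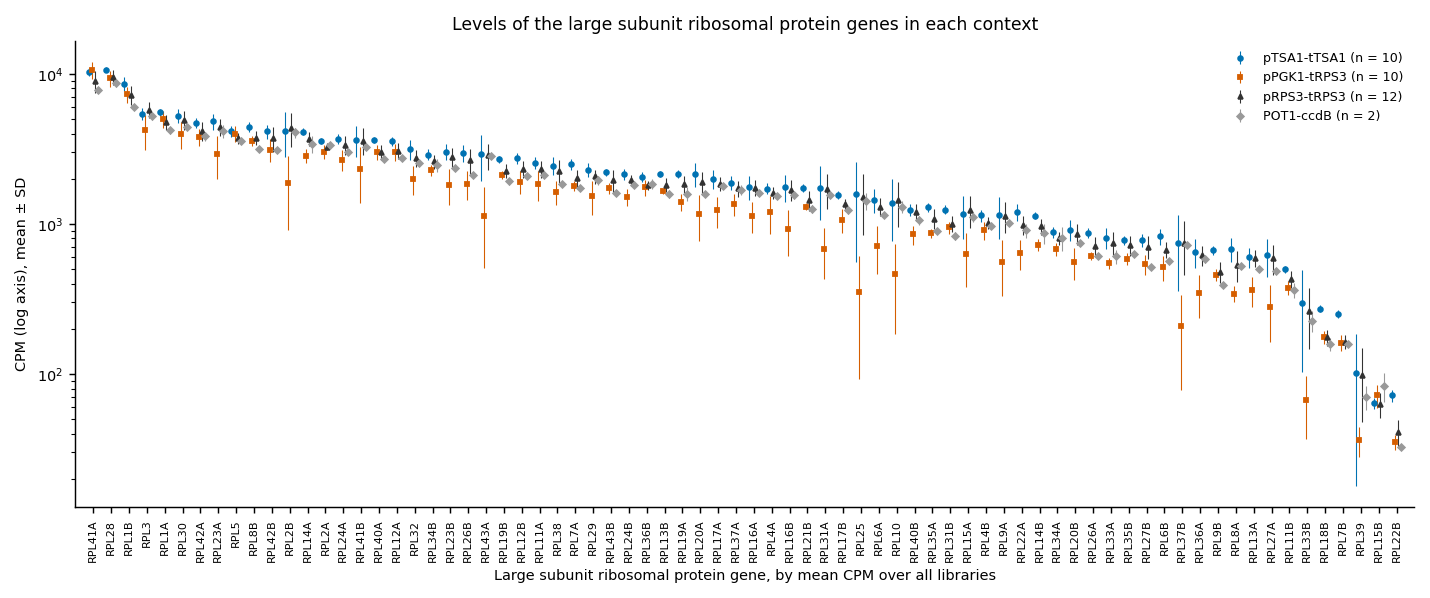
Mean CPM (log axis) with SD for 74 of the 75 tested members, ordered by mean level, in pTSA1-tTSA1, pPGK1-tRPS3, pRPS3-tRPS3 and POT1-ccdB libraries. The order is led by RPL41A, RPL28 and RPL1B and ends with RPL39, RPL15B and RPL22B, and the pPGK1-tRPS3 means of RPL25, RPL10, RPL37B, RPL33B and RPL39 lie below those of the other contexts.

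Spread between replicates was measured as the pooled SD of log2(CPM + 0.5) around the plasmid group means. Its median was 0.18 over the members and 0.23 over all 5142 features, with 41 members under 0.2 and 10 over 0.5. The features were not matched to the members in level (medians of 45.0 and 1661 CPM). Whether members vary less than features of the same level was not tested. The 4 smallest belonged to RPL19B (0.058), RPL13B (0.065), RPL21B (0.073) and RPL26A (0.085). The 4 largest belonged to RPL25 (1.08), RPL37B (0.97), RPL33B (0.85) and RPL39 (0.83). The spread differed by context: the median member had 0.13 in pTSA1-tTSA1, 0.25 in pPGK1-tRPS3, 0.12 in pRPS3-tRPS3 and 0.062 in POT1-ccdB, where 2 libraries give a single degree of freedom. Over all features the same medians were 0.20, 0.23, 0.22 and 0.12. With library totals in place of TMM, the pPGK1-tRPS3 median was 0.20 over the members and 0.25 over all features, so that its place above or below all features depends on the scaling. In pPGK1-tRPS3, 66 of 75 members had a larger spread than in pRPS3-tRPS3, against 54.3% of all features. The pPGK1-tRPS3 spread has 5 degrees of freedom and includes the modNAA pair with the library that stood apart. It is not given without that pair, so the part of that library in it was not tested.

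RPL25 encodes the protein at the exit of the tunnel where nascent chain factors dock (R64 chrXV:80348-81190, plus strand, 1 intron). In pTSA1-tTSA1 with modNNN its replicates stood at 2344 and 285 CPM, an 8.24-fold difference, and with modNAA at 3367 and 461 CPM, a 7.31-fold difference. In pPGK1-tRPS3 with modNNN they stood at 831 and 140 CPM. The replicates were also far apart in pPGK1-tRPS3 with modNAA (4.89-fold) and unmodified (3.56-fold) and in pRPS3-tRPS3 with modNTN (3.04-fold). They were close with modHTH in pTSA1-tTSA1 (906 and 848 CPM) and modNAA in pRPS3-tRPS3 (2253 and 1979 CPM), and the median over the 15 plasmid groups with 2 libraries was 1.76-fold. RPL19B, also a protein at the tunnel exit (R64 chrII:168423-169376, plus strand, 1 intron), differed by 1.11-fold at most between the replicates of any of those 15 groups. The 5 most variable members moved together: in 11 of those 15 groups the same library was the lower of the pair for RPL25, RPL37B, RPL33B, RPL10 and RPL39. In pTSA1-tTSA1 with modNNN, for example, the library with 285 CPM of RPL25 also held the lower value of RPL10, 432 CPM against 1950 CPM in its replicate. A single component of the differences between replicates held 25.96% of the variance within groups over all features. By the size of its loading, RPL25 ranked 4 among all 5142 features, RPL37B 7, RPL33B 13, RPL10 19 and RPL39 26. These members were picked for their spread, and the component was drawn from the same differences without scaling. High ranks therefore follow in part from the choice.

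**Figure D2:**
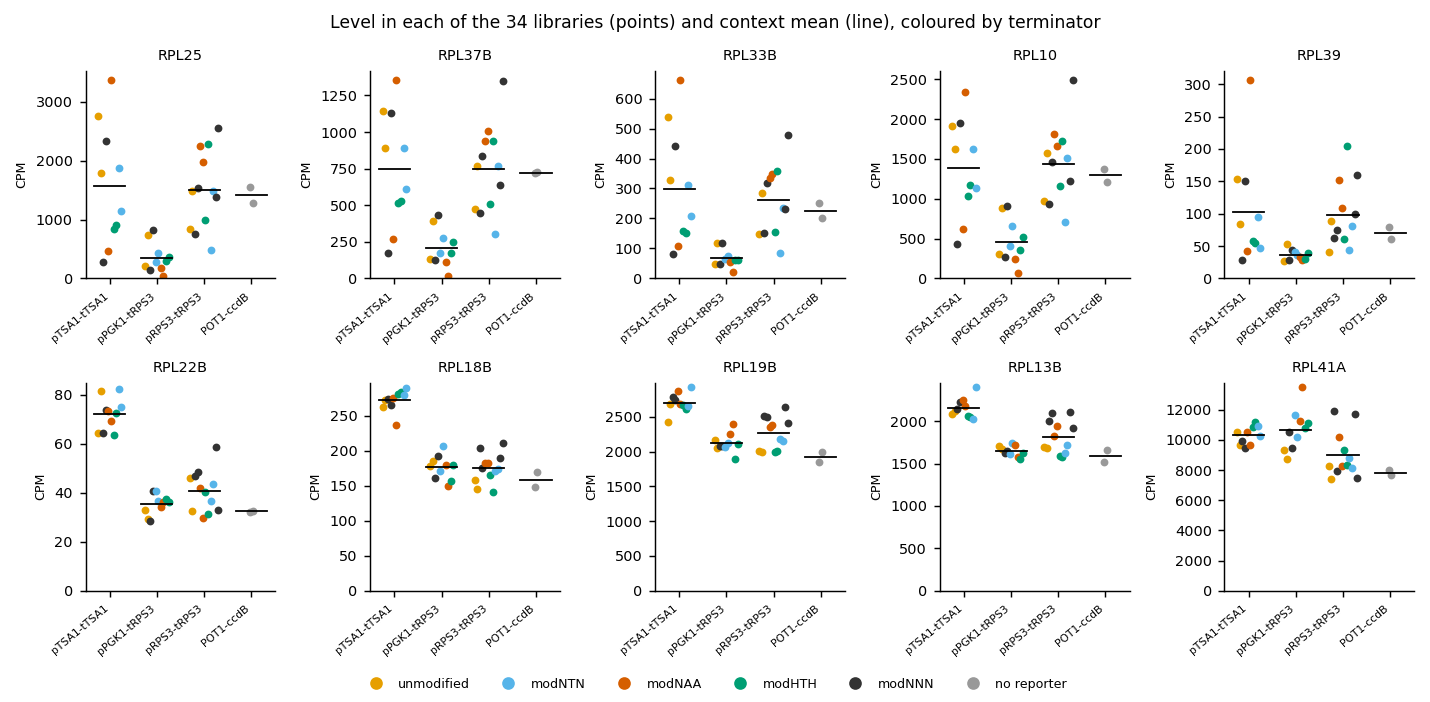
CPM in each of the 34 libraries for 10 members, by context and coloured by terminator, with the context mean as a line; axes start at 0. RPL25, RPL37B, RPL33B, RPL10 and RPL39 scatter widely between replicates and sit low in pPGK1-tRPS3, while RPL19B and RPL13B are close between replicates. RPL22B and RPL18B are higher in pTSA1-tTSA1 than in pPGK1-tRPS3 and pRPS3-tRPS3 libraries.

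Some of the most variable members were AT-rich after the stop codon. In the 100 bases after it, RPL genes held a median of 22% G and C, against 30% over the host features tested that could be placed on R64. The 56 small subunit (RPS) genes had a median of 24%. Among the members, RPL33B (13%), RPL25 (14%) and RPL10 (17%) were at the low end. RPL37B had 20%, and RPL39, with 28%, was not AT-rich by this measure. Across the 75 members, this share and the spread between replicates had a Spearman correlation of -0.47, against -0.36 over the 56 small subunit (RPS) genes and -0.02 over 5082 features. The share in the last 100 coding bases had 0.07 over the members. Genes share libraries and are not independent, and the 5082 features were not matched to the members in level, so these are descriptions. The 13 members with 18% or less had a median spread of 0.27 (range 0.13 to 1.08). The 47 with over 18 and up to 26% had 0.16 (0.058 to 0.97), and the 15 above had 0.13 (0.073 to 0.83). The ranges overlapped widely, and the limits were set after the values had been seen. Mean CPM (Spearman -0.18) and the length of the deposited transcript after the stop codon (-0.01) went with the spread less closely.

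**Figure D3:**
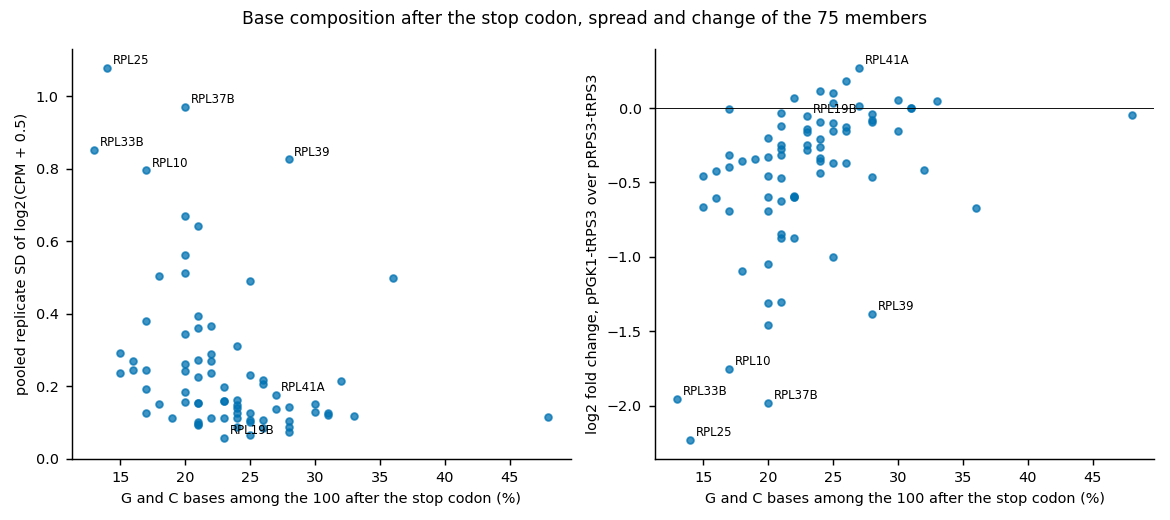
Percent of G and C among the 100 bases after the stop codon against the pooled replicate SD of log2(CPM + 0.5) (left) and against the log2 fold change of pPGK1-tRPS3 over pRPS3-tRPS3 (right), 1 point per member. RPL25, RPL33B and RPL10 lie at the AT-rich end with a large spread and a large fall, and RPL39 stands apart with 28%.

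Whether the host's RPL transcripts differ between reporter contexts was asked by 3 comparisons that share libraries, since each context enters 2 of them. In pTSA1-tTSA1 libraries against pRPS3-tRPS3 libraries, contexts that differ in promoter and terminator, 40 of 75 members were higher and 0 lower at an adjusted p under 0.05 (edgeR quasi-likelihood test, adjusted over all 5142 features). Among all features, 47.6% were called, 23.2% higher and 24.4% lower. The median member differed by 0.19 on the log2 scale, against -0.00 for the median feature. Without the plasmid group of the library that stood apart, 48 were called, all higher.

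The 4 largest rises were those of B genes: RPL22B, RPL18B, RPL7B and RPL9B. RPL22B (R64 chrVI:64243-64932, minus strand, 1 intron), whose splicing is known to be repressed by the Rpl22 protein, ran from 63.6 CPM with a median of 72.8 to 82.1 in pTSA1-tTSA1, against 29.8, 41.2 and 58.7 CPM in pRPS3-tRPS3. The ranges did not overlap. Its log2 fold change was 0.87 ± 0.09 (SE; edgeR adjusted p = 6.14e-09). RPL18B ran from 237 CPM with a median of 275 to 290 in pTSA1-tTSA1, against 141, 175 and 211 CPM in pRPS3-tRPS3, again without overlap, and its log2 fold change was 0.68 ± 0.06 (adjusted p = 1.84e-10). RPL7B ran from 221 CPM with a median of 258 to 277 in pTSA1-tTSA1, against 127, 168 and 189 CPM, a log2 fold change of 0.64 ± 0.06 (adjusted p = 5.56e-10). These were the 3 members without overlap, while 3.44% of all features lay wholly above in pTSA1-tTSA1 and 6.05% wholly below. RPL9B, near the base of the acidic stalk, ran from 583 CPM with a median of 665 to 765 in pTSA1-tTSA1, against 367, 471 and 599 CPM in pRPS3-tRPS3, where the ranges overlapped, and its log2 fold change was 0.54 ± 0.06 (adjusted p = 4.18e-08).

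The members steady between replicates rose by smaller amounts. RPL19B averaged 2706 ± 141 CPM in pTSA1-tTSA1 (SD, n = 10) and 2262 ± 234 CPM in pRPS3-tRPS3 (SD, n = 12), a log2 fold change of 0.30 ± 0.05 (edgeR adjusted p = 9.58e-06). Within pRPS3-tRPS3, RPL19B differed by plasmid. It stood at 1988 to 2009 CPM unmodified, 2000 to 2009 with modHTH, 2154 to 2178 with modNTN and 2358 to 2383 with modNAA. With modNNN it ran from 2415 to 2643 CPM, which overlaps the 2428 to 2934 CPM of pTSA1-tTSA1. RPL13B (0.29), RPL21B (0.33), RPL26A (0.36) and RPL31B (0.35) were called as well, and in each all 10 pTSA1-tTSA1 libraries lay above the pRPS3-tRPS3 mean. The variable members could not be resolved: RPL25 averaged 1579 ± 1023 CPM in pTSA1-tTSA1 and 1504 ± 661 CPM in pRPS3-tRPS3, with a log2 fold change of 0.06 ± 0.37 (adjusted p = 0.91), which leaves room for sizeable changes either way. Among single-copy members, RPL5, which binds 5S rRNA (0.18, adjusted p = 0.016; with library totals 0.13, adjusted p = 0.091), and RPL28 (0.21, adjusted p = 0.0087) were called, while RPL3, which reaches towards the peptidyl transferase centre, had -0.07 (adjusted p = 0.63) and RPL30, which represses splicing of its own transcript, 0.14 (adjusted p = 0.17).

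In pPGK1-tRPS3 libraries against pRPS3-tRPS3 libraries, contexts that share the terminator and differ in promoter, 50 of 75 members were lower and 1 higher. Among all features, 38.5% were called, 20.6% lower and 18% higher. The median member differed by -0.33 on the log2 scale, against 0.01 for the median feature, and 65 of 75 values were below 0. The size of this split depends on the scaling: with library totals in place of TMM, 40 members were lower and 13 higher, while the median of all features moved to 0.19. The median member was then at -0.16, still below the median feature. Without the modNAA plasmid group of pPGK1-tRPS3, 49 were lower and 1 higher.

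The 4 largest falls belonged to RPL25, RPL37B, RPL33B and RPL10. RPL25 ran from 35.4 CPM with a median of 286 to 831 in pPGK1-tRPS3, against 485, 1484 and 2564 CPM in pRPS3-tRPS3. The ranges overlapped, and each of the 10 pPGK1-tRPS3 values was under the mean of pRPS3-tRPS3. The log2 fold change was -2.23 ± 0.39 (SE; edgeR adjusted p = 8.22e-05). RPL37B (R64 chrIV:1450198-1450853, minus strand, 1 intron) ran from 13.9 CPM with a median of 175 to 430 in pPGK1-tRPS3, against 305, 766 and 1349 CPM in pRPS3-tRPS3, a log2 fold change of -1.98 ± 0.35 (adjusted p = 8.14e-05). Its deposited transcript overlaps that of SEC20 on the same strand. RPL33B (R64 chrXV:778555-779405, minus strand, 1 intron) ran from 21.8 CPM with a median of 61.1 to 119 in pPGK1-tRPS3, against 84.4, 261 and 479 CPM, with a log2 fold change of -1.96 ± 0.32 (adjusted p = 3.91e-05). RPL10, which is loaded late beside the peptidyl transferase centre (R64 chrXII:282927-283592, plus strand, no intron), ran from 65.1 CPM with a median of 383 to 909 in pPGK1-tRPS3, against 710, 1486 and 2487 CPM, with a log2 fold change of -1.75 ± 0.29 (adjusted p = 4.82e-05). For all 4 the ranges overlapped.

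RPL41A was the single member called higher. It ran from 8767 CPM with a median of 10682 to 13483 in pPGK1-tRPS3, against 7392, 8308 and 11890 CPM in pRPS3-tRPS3, with wide overlap and a log2 fold change of 0.27 ± 0.08 (edgeR adjusted p = 0.0067). RPL14A, named here after its values were seen, was the only member whose ranges did not overlap (0.972% of all features lay wholly below and 0.642% wholly above in pPGK1-tRPS3): 2012 to 3124 CPM in pPGK1-tRPS3, against 3175 to 4314 CPM in pRPS3-tRPS3. Of the 10 single-copy members, 8 fell, with log2 fold changes between -2.23 (RPL25) and -0.28 (RPL30), RPL39 at -1.38, and RPL3, RPL32, RPL29 and RPL38 between -0.45 and -0.42. The others had 0.12 (RPL5, adjusted p = 0.12) and 0.02 (RPL28, adjusted p = 0.88). Of the 4 steadiest members, RPL19B (-0.06), RPL13B (-0.10) and RPL21B (-0.08) did not pass the test, and RPL26A was called lower (-0.16, edgeR adjusted p = 0.020). The RPL26A call was lost with library totals (0.021, adjusted p = 0.78) and with the base composition trend described below removed (-0.11, adjusted p = 0.095). With library totals RPL30 also lost its call (-0.11, adjusted p = 0.13), and RPL41A was at 0.45.

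The size of the fall went with base composition after the stop codon. The 13 members with 18% or less G and C had a median log2 fold change of -0.61 with 12 lower, the 47 between had -0.33 with 34 lower, and the 15 above 26% had -0.04 with 4 lower and 1 higher. The Spearman correlation was 0.55 over 75 members, 0.36 over the 56 RPS genes and 0.25 over 5082 features. The relation was not limited to this comparison. Over the members it was 0.33 for pTSA1-tTSA1 against pRPS3-tRPS3 and 0.52 for reporter plasmids against POT1-ccdB (-0.02 and 0.04 over 5082 features). Members higher in pTSA1-tTSA1 than in pRPS3-tRPS3 were 3 of the 13, 26 of the 47 and 11 of the 15. The trend of single libraries with the share of G and C was steepest in replicate 2 of modNAA in pPGK1-tRPS3, where features with 10% G and C lay 0.94 below their mean on the log2 scale. With that trend removed from every library, an alternative chosen after seeing the data, 35 members were lower and 5 higher, with a median of -0.12. RPL25 was then at -1.89 and RPL10 at -1.48. The single-copy members RPL29, RPL30 and RPL32 no longer passed the test (edgeR adjusted p = 0.25, 0.073 and 0.11 in that order).

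In pTSA1-tTSA1 libraries against pPGK1-tRPS3 libraries, 72 of 75 members were higher and 0 lower, with 61.1% of all features called, 31.1% higher and 30.0% lower. The median member differed by 0.55 on the log2 scale. RPL25 had 2.29 ± 0.40 (edgeR adjusted p = 1.84e-05), RPL33B 2.15 ± 0.33 (adjusted p = 2.69e-06), RPL37B 2.01 ± 0.35 (adjusted p = 2.12e-05) and RPL10 1.71 ± 0.30 (adjusted p = 1.80e-05), from the values given above. Their ranges overlapped. In 28 members every pTSA1-tTSA1 library lay above every pPGK1-tRPS3 library, as in 7.0% of all features, and in 0 members every one lay below, as in 8.36% of all features. Among these were the steady members RPL19B, at 2428 to 2934 CPM in pTSA1-tTSA1 against 1895 to 2391 CPM in pPGK1-tRPS3 (0.35 ± 0.05, adjusted p = 7.71e-07; with library totals 0.13, adjusted p = 0.054), and RPL26A, at 795 to 1036 CPM against 525 to 678 CPM (0.51 ± 0.05, adjusted p = 6.74e-09). The 3 members not called were RPL5 (0.06), RPL41A (-0.04) and RPL15B (-0.17). With library totals in place of TMM, 58 were higher and 3 lower, while the median of all features moved to -0.23.

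**Figure D4:**
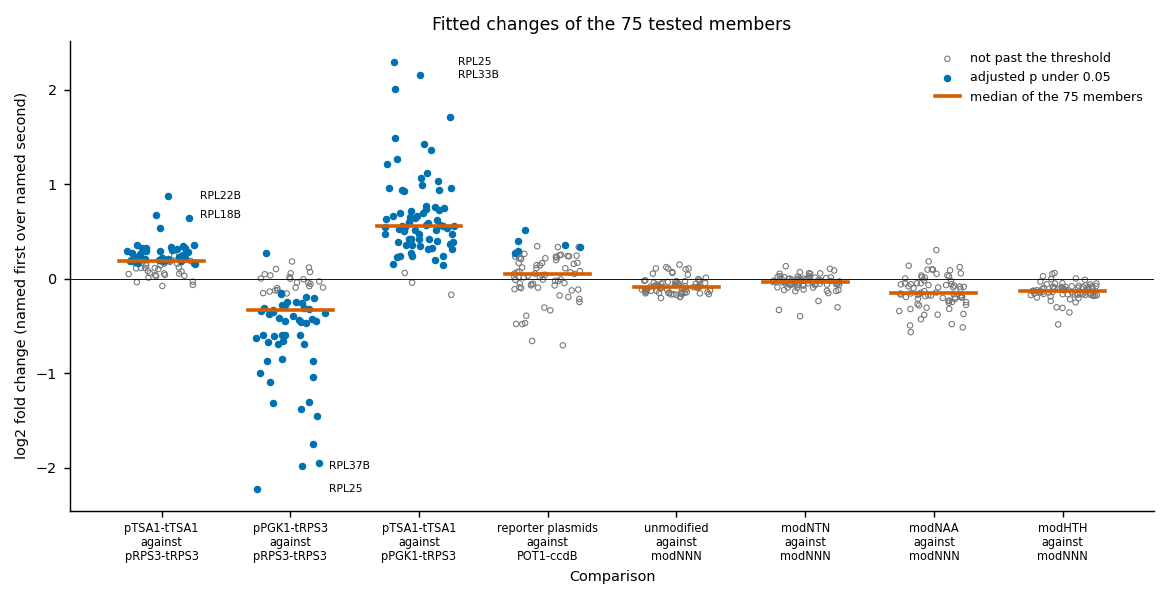
Fitted log2 fold change of each of the 75 tested members in the 8 comparisons, with called members filled and the median as a bar. Members lie mostly above 0 in pTSA1-tTSA1 against pRPS3-tRPS3 (median 0.19), mostly below 0 in pPGK1-tRPS3 against pRPS3-tRPS3 (median -0.33), and none is called in the 4 terminator comparisons.

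By position in the subunit, where 40 of all 75 members and 23.2% of all features were called higher in pTSA1-tTSA1 than in pRPS3-tRPS3, both L1 stalk genes were called higher, as were 9 of 14 genes at the exit tunnel, 5 of 10 on the face that meets the small subunit, 3 of 4 near the base of the acidic stalk and 2 of 3 for proteins that bind 5S rRNA. Of the 4 genes whose proteins reach towards the peptidyl transferase centre (RPL2A, RPL2B, RPL3 and RPL10), 0 were, and of the 38 at other positions 19 were. RPL2B and RPL10 had a spread between replicates of 0.64 and 0.80, which limits what could be called for them. In pPGK1-tRPS3 against pRPS3-tRPS3, 50 of all 75 members and 20.6% of all features were lower. Lower were 11 of the 14 tunnel genes, 3 of the 4 peptidyl transferase genes and 7 of 10 on the subunit face, where 1 was higher. So were 2 of 4 near the stalk base, 1 of 3 for 5S rRNA binding and 26 of the 38 at other positions. Of the 2 L1 stalk genes 0 were lower, with log2 fold changes of 0.06 and 0.10. The summed level of the tunnel genes averaged 21850 ± 2630 CPM in pTSA1-tTSA1 (SD, n = 10), 13858 ± 1900 CPM in pPGK1-tRPS3 (n = 10) and 19422 ± 2441 CPM in pRPS3-tRPS3 (n = 12). That of the peptidyl transferase genes averaged 14547 ± 2378, 9587 ± 2205 and 14857 ± 2186 CPM in the same contexts. The lists were chosen with earlier results of these data known, and no list was tested as a set.

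Counts for other gene groups are to be read against the 47.6% of all features called in pTSA1-tTSA1 (23.2% higher, 24.4% lower) and the 38.5% called in pPGK1-tRPS3 (18% higher, 20.6% lower), each against pRPS3-tRPS3. In pTSA1-tTSA1 against pRPS3-tRPS3, 32 of 56 RPS genes were higher and 0 lower (median 0.19). Of 21 tested assembly factors and chaperones of the large subunit, 18 were higher and 0 lower (median 0.64), and of the 5 genes of the acidic stalk 0 were called (median 0.04). In pPGK1-tRPS3 against pRPS3-tRPS3, 40 of 56 RPS genes were lower and 0 higher (median -0.30), as were 10 of 21 assembly factors (median -0.20) and all 5 acidic stalk genes (median -0.77). Among 10 regulators of ribosomal protein genes, IFH1, the coactivator that Fhl1 recruits, was higher in pTSA1-tTSA1 than in pRPS3-tRPS3 (0.65, adjusted p = 5.58e-09), as were RAP1 (0.38) and TOD6 (0.52), while DOT6 (-0.61), STB3 (-0.47), SFP1 (-0.40) and HMO1 (-0.40) were lower. FHL1 was lower in pPGK1-tRPS3 (-0.39, adjusted p = 3.83e-04), with HMO1 (-0.61) and SCH9 (-0.53), and no regulator was higher there. Of 12 stress genes, 10 were lower and 1 higher in pTSA1-tTSA1 (median -1.12), and 1 was lower and 7 higher in pPGK1-tRPS3 (median 0.35), each against pRPS3-tRPS3. Of 16 glycolysis genes, 6 were lower and 1 higher in pTSA1-tTSA1 (median -0.25), and 12 lower and 0 higher in pPGK1-tRPS3 (median -0.38). The part of these gene groups in the RPL differences was not tested.

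Reporter plasmids were set against POT1-ccdB to ask whether RPL transcripts differ when a reporter is present. Of 75 members, 6 were higher and 0 lower, with 12.1% of all features called, 4.67% higher and 7.45% lower. All 6 are B genes of paralog pairs: RPL22B, RPL9B, RPL18B, RPL31B, RPL8B and RPL19B (RPL8B was named here after its values were seen). RPL22B stood at 63.6 to 82.1 CPM in pTSA1-tTSA1, 28.5 to 40.8 CPM in pPGK1-tRPS3 and 29.8 to 58.7 CPM in pRPS3-tRPS3, against 32.3 and 32.7 CPM in POT1-ccdB. Only the pTSA1-tTSA1 libraries lay wholly above POT1-ccdB. Its log2 fold change over all reporter groups was 0.51 ± 0.15 (edgeR adjusted p = 0.028), with 28 of 32 libraries above the POT1-ccdB mean. RPL9B had 0.40 ± 0.11 (adjusted p = 0.014), RPL18B 0.35 ± 0.10 (adjusted p = 0.018) and RPL31B, at the tunnel exit, 0.33 ± 0.09 (adjusted p = 0.016). In 0 members were the ranges free of overlap, against 0.506% of all features wholly above and 0.583% wholly below. Without replicate 1 or without replicate 2 of POT1-ccdB, 0 members passed the test.

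Terminators were compared within contexts and averaged over the 3 contexts, to ask whether the inserted motifs change host RPL transcripts. By edgeR, 0 of 75 members were called in unmodified, modNTN, modNAA or modHTH libraries against modNNN libraries, where 0.0583%, 0.0194%, 0% and 0.408% of all features were called. At an unadjusted p under 0.05 the member counts were 10, 0, 10 and 12 in that order, and DESeq2 called 0, 0, 0 and 5. The median member differed by -0.09, -0.04, -0.16 and -0.13 on the log2 scale. For modNAA, members were called once replicate 1 of modNAA in pPGK1-tRPS3 was left out. That fit has replicate 2, the library that stood apart, as the only library of its group. Tests of whether a terminator's effect differed between pTSA1-tTSA1 or pPGK1-tRPS3 and pRPS3-tRPS3 called 0 members in each of 8 tests, with 0 to 27 at an unadjusted p under 0.05.

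Paralog pairs encode nearly the same protein: 12 of 33 pairs are identical, 29 exceed 95% identity, and the lowest is RPL22 with 84.4%. The share of the A gene in the counts of its pair can be compared within a library without any scaling, and 32 pairs had counts for both genes. In 22 pairs the same gene was higher in all 34 libraries, the A gene in 15 and the B gene in 7. The most unequal pairs included RPL22 with 95.1 ± 1.38% from RPL22A, RPL15 with 92.5 ± 5.10% from RPL15A and RPL7 with 91.7 ± 1.04% from RPL7A. The 4 most equal by mean log2 ratio were RPL43 with 51.6 ± 13.8%, RPL2 with 50.7 ± 12.7%, RPL16 with 52.2 ± 3.20% and RPL42 with 53.8 ± 2.22% from the A gene. RPL43 and RPL2 were equal only on average: the share of RPL43A ran from 9.41 to 67.6% and that of RPL2A from 31.2 to 93.9%. RPL11, RPL26 and RPL42 share stretches of 50 bases between paralogs near the stop codon, so their counts may be split between the copies.

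**Figure D5:**
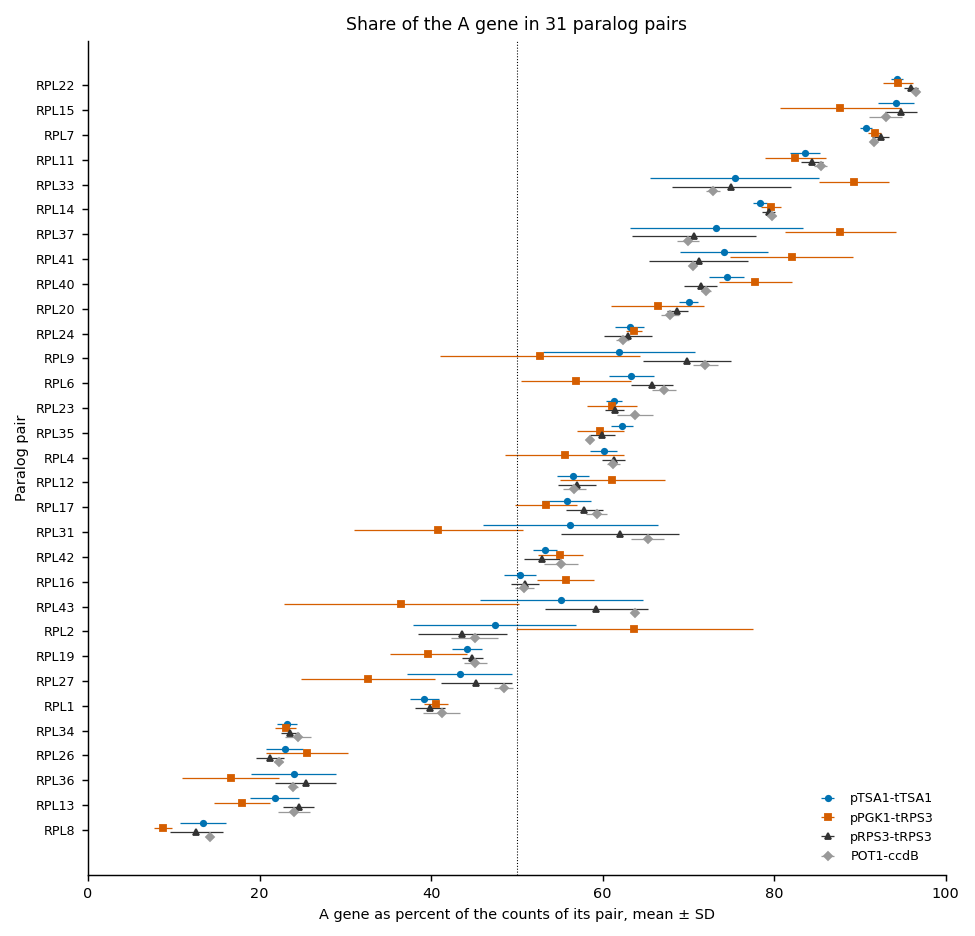
Share of the A gene in the counts of 31 paralog pairs, mean ± SD by context, ordered by the mean over all libraries; the dotted line marks equal shares. RPL22 and RPL7 stay above 90% on average in every context. The pPGK1-tRPS3 means of RPL43, RPL31, RPL2, RPL37 and RPL33 lie apart from the means of the other contexts. For RPL43, RPL31, RPL2 and RPL37 the SD bars of pPGK1-tRPS3 and pTSA1-tTSA1 overlap.

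Ratios were tested by limma on log2((A + 0.5)/(B + 0.5)), adjusted over 782 protein pairs of the genome. In pTSA1-tTSA1 against pRPS3-tRPS3, 3 of 32 RPL pairs were called (43.6% of all pairs), all towards the B gene, among them RPL22 (-0.55 ± 0.14, adjusted p = 0.0027) and RPL7 (-0.30 ± 0.07, adjusted p = 0.0012). All 3 moved towards the gene with more G and C after its stop codon. Over 32 pairs, the change had a Spearman correlation of 0.54 with the difference in that content. The share of RPL22A was 94.3 ± 0.691% in pTSA1-tTSA1 (SD, n = 10) and 96.0 ± 0.831% in pRPS3-tRPS3 (SD, n = 12), and the ranges overlapped.

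In pPGK1-tRPS3 against pRPS3-tRPS3, 21 of 32 pairs were called (39.8% of all pairs), 8 towards the A gene and 13 towards the B gene. The largest changes were in RPL37 (1.80 ± 0.35, limma adjusted p = 4.93e-04), RPL33 (1.52 ± 0.29, adjusted p = 5.34e-04), RPL43 (-1.49 ± 0.26, adjusted p = 1.94e-04) and RPL2 (1.30 ± 0.27, adjusted p = 7.17e-04). RPL37A held 77.1 to 98.3% of its pair in pPGK1-tRPS3, against 61.5 to 83.7% in pRPS3-tRPS3. RPL43A held 9.41 to 54.9% in pPGK1-tRPS3, against 47.8 to 67.6% in pRPS3-tRPS3. The ranges overlapped in both. Of the 21 pairs called, 13 moved towards the gene with more G and C after its stop codon and 1 had equal shares, and over 32 pairs the change had a Spearman correlation of 0.47 with that difference.

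In pTSA1-tTSA1 against pPGK1-tRPS3, 21 of 32 pairs were called (63.4% of all pairs), 12 towards the A gene and 9 towards the B gene, led by RPL37 (-1.54 ± 0.35, limma adjusted p = 8.34e-04), RPL33 (-1.45 ± 0.30, adjusted p = 3.43e-04), RPL43 (1.20 ± 0.27, adjusted p = 5.69e-04) and RPL2 (-1.11 ± 0.27, adjusted p = 0.0015). RPL2A held 37.0 to 65.9% of its pair in pTSA1-tTSA1, against 47.3 to 93.9% in pPGK1-tRPS3, with overlap. Of the 21 pairs called, 8 moved towards the gene with more G and C after its stop codon and 1 had equal shares. The Spearman correlation over 32 pairs was -0.28.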

How the data were processed

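Total RNA of 34 libraries was sequenced from 3′ ends with QuantSeq REV, per the labels' protocols. The submitters' processing notes name cutadapt, HISAT2, featureCounts and the builds sacCer3 and R64. The authors deposited raw read counts per feature, without normalization. The 2 plasmid features (URA3 and the plasmid primary transcript) were left out. Counts were fitted with edgeR 4.0.16 (quasi-likelihood, TMM, filterByExpr) with 1 coefficient per plasmid group, and p-values were adjusted by Benjamini-Hochberg over 5142 features. Paralog ratios were fitted with limma 3.58.1, over reciprocal best blastp hits between proteins translated from RefSeq R64, with a pseudocount of 0.5 and no tests for pairs below the filter. The design had left these ratios untested if no protein table was at hand; translated proteins were used in its place. DESeq2 1.42.0 was an alternative. Depth ran from 1007889 to 3837006 counts per library. Intervals are standard errors of the fit or SD between libraries. The labels mention no molecular identifiers.

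Named members are, per comparison, the 4 called with the largest rise and the 4 with the largest fall, 10 single-copy genes, the extremes of level (3 each) and spread (4 each), and the 4 most equal, most unequal and most changed pairs. Members and lists were chosen with earlier results of these data known. The fits were tested on simulated data.

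Alternatives were library totals, TMM without ribosomal protein genes, other filters, only the groups compared, a replicate block, the residual component as a covariate and each library left out. Positions of 3′ ends within single genes were not used here. A member and its paralog ratio are not reported here by name, though they enter the counts.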

Additional observations from a re-analysis of the deposited data

How the results depend on the processing

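The counts of called members in the 3 context comparisons stayed within 1.5 times in every alternative, as did the paralog counts but for 2 left-out libraries. These counts add calls in both directions. The split between lower and higher members in pPGK1-tRPS3 against pRPS3-tRPS3 changed with library totals and with the base composition trend removed, as given above. Reporter plasmids against POT1-ccdB gave 10 called members with library totals, 25 with the residual component as a covariate, 12 with DESeq2 and 12 without the modNAA group of pPGK1-tRPS3, against 6. For modNAA against modNNN the covariate gave 8. For modHTH against modNNN it gave 2, DESeq2 gave 5, and leaving out the modNAA group of pPGK1-tRPS3 gave 1. The cause was not tested.

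With each library left out in turn, called members ranged from 35 to 47 (pTSA1-tTSA1 against pRPS3-tRPS3), 48 to 55 (pPGK1-tRPS3 against pRPS3-tRPS3), 70 to 72 (pTSA1-tTSA1 against pPGK1-tRPS3), 0 to 9 (reporter plasmids against POT1-ccdB), 0 to 18 (modNAA) and 0 to 1 (modHTH). Changed paralog ratios ranged from 3 to 6, 19 to 23 and 17 to 22 in the context comparisons in the same order. In pTSA1-tTSA1, leaving out modNNN replicate 2 gave the 6, and leaving out modNAA replicate 2 gave 5.

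With library totals, RPL26A in pPGK1-tRPS3 against pRPS3-tRPS3 changed sign to 0.021 and RPL28 in pTSA1-tTSA1 against pPGK1-tRPS3 to -0.026. Of 510 values of called, named members under alternatives, 12 kept their direction and lost the call. Leaving out single libraries did so in 14 of 1734. Those calls were of RPL26A in pPGK1-tRPS3 against pRPS3-tRPS3 and of members against POT1-ccdB.

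Replicate numbers did not pair libraries across all groups: correlations of same-numbered libraries between groups ran from -0.38 to 0.58 with a median of 0.02. Of 120 correlations, 39 were over 0.1 and 22 under -0.1, and whether some groups shared a batch was not tested. With the number as a replicate block, 42, 50, 72 and 8 members were called in the comparisons of contexts and of reporters with POT1-ccdB. Groups of 2 libraries and a spread that reaches 1.08 on the log2 scale for RPL25 limit what could be detected for the variable members.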
